A study of Homo sapiens with 12 samples.

Results

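In PC-3 cells, 2 oligonucleotides able to fold into G-quadruplexes (G4) were set against 2 controls, with 1 array for each treatment, and 382 of 19775 genes differed between the classes. Of these, 256 genes were lower and 126 were higher in the G4 arrays. The fallers were led by genes that interferon induces. Of 64 measured members of 3 lists of such genes 57 fell, beside 1.29% of all genes. The largest fall was that of IFI27, 18.5-fold, and the largest rise that of HSPA6, a stress-induced chaperone of the Hsp70 family, 4.80-fold. The members were chosen by their labels: the 4 PC-3 arrays of the 12 in the series, and in them every gene named by a probe set that names 1 gene. A gene was counted as separated where both G4 arrays lay beyond both control arrays, which held for 9801 of the 19775 genes.

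PC-3 is an established line labelled as a human prostate cancer line, and the series treated HBC4, labelled as a breast, and MKN74, labelled as a gastric cancer line, in the same way. The control arrays held cells given the transfection reagent alone (labelled lipofectamin only) and cells given the RNA oligonucleotide (uuaccc)4, and the G4 arrays held cells given the RNA oligonucleotide (uuaggg)4 and cells given the DNA oligonucleotide AS1411. All 4 cultures had Lipofectamine RNAiMAX in a reverse transfection of 300000 cells per well, the oligonucleotide arms with 1.0 ug, about 100 pmol per well, and all were kept for 72 h on a low-adhesion surface before RNA was taken. The labels name no modification of the line. The arrays of a class are different treatments and not repeat cultures. An error below therefore measures the spread between 2 treatments of a class, pooled over all lines and not taken from PC-3 alone. A p-value says no more than that. The RNA oligonucleotides share their kind of nucleic acid and their dose, while for AS1411 against the reagent alone the fold cannot be told apart from the presence of a DNA oligonucleotide. PC-3 is 1 line.

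A G4 is a 4-stranded structure in which guanines pair in stacked planes. AS1411 is a guanine-rich aptamer that binds nucleolin, a nucleolar protein also found at the surface of many tumour cells. Interferons are secreted proteins made when sensors detect foreign or misplaced nucleic acid. Their receptors activate a factor complex that contains IRF9 and that binds the interferon-stimulated response element (ISRE), and interferon gamma acts through the related gamma-activated site (GAS). Transfected RNA and DNA can set off this pathway, and its target genes encode antiviral proteins.

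The 250 bases before the start of 4 genes that fell are shown because they hold the ISRE core or GAS pattern; they are the first 4 by size among the 15 largest fallers that hold one, read 5′ to 3′ on the gene's strand from RefSeq (GRCh38.p14), with the matches in capitals and overlapping matches joined. They are IFI27 (chr14:94110486-94110735, plus strand), BST2 (chr19:17405631-17405880, minus strand), IFI6 (chr1:27672193-27672442, minus strand) and IFI44 (chr1:78649539-78649788, plus strand).
IFI27: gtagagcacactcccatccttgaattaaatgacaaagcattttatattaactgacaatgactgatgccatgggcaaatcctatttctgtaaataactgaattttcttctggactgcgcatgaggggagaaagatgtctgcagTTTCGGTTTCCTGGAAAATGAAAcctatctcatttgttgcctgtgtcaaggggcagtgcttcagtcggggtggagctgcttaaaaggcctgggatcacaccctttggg
BST2: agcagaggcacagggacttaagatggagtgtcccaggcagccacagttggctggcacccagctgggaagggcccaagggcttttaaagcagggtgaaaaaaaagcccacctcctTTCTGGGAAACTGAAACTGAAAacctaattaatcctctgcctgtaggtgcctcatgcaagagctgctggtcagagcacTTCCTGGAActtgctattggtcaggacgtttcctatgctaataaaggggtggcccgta
IFI6: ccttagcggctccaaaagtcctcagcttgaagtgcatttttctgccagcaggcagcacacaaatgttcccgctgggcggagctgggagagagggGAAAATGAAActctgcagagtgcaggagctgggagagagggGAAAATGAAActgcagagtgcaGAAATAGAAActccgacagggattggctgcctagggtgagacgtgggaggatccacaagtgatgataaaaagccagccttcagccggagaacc
IFI44: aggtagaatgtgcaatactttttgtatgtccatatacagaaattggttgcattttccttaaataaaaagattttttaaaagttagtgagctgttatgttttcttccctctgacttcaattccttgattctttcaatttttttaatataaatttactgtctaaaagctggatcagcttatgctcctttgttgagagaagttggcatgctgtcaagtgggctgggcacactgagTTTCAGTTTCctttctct
The ISRE core was searched as GAAANNGAAA on both strands and GAS as TTCNNNGAA, which reads alike on both strands, and 1 stretch can match both. In IFI27 the ISRE matches began 108 and 95 bases before the start, with a GAS match 101 bases before it between them. In BST2 they began 130 and 124 bases before the start, with GAS matches at 136 and 58. IFI6 had 3 ISRE matches, at 156, 115 and 93 bases before the start, and IFI44 had 1, at 18.

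The PC-3 label was checked against the arrays first. The values are log2 and centred on each probe set's median over the 12 arrays, so they show differences between arrays and no level. CTNNA1, encoding alpha-catenin, lay between -8.63 and -8.24 on the PC-3 arrays and between -0.05 and 0.07 on the others; PC-3 is known to lack it. Of the prostate markers HOXB13 (4.58 to 4.88) and STEAP2 (4.02 to 4.54) were far above the other lines, while KLK2 and KLK3 were not. The mucosal peptides TFF1 (7.97 to 8.26) and TFF2 (8.13 to 8.38), listed as mammary and gastric markers, were also higher in PC-3 than in the lines labelled as breast and gastric. Over all genes, the 2 control arrays correlated at 0.98 and the 2 G4 arrays at 0.973, and arrays of different classes at 0.942 to 0.954. These correlations are descriptions across genes, which are no independent replicates, and are raised by what sets PC-3 apart from the other lines. Among markers of cells that a pure line should not hold, 1 of 7 lymphocyte markers (IL7R) and 1 of 7 myeloid markers (LYZ) fell. Of the fibroblast markers 0 of 8 and of the endothelial markers 0 of 7 passed the test (limma, adjusted p), beside 1.29% of all genes called lower. A call shows a change between the classes and not whether a marker is present. COL3A1 (2.98 to 3.42) and PECAM1 (2.67 to 3.21) were above all arrays of the other lines (highest 0.16 and 0.14), while DCN and CDH5 were not. IL7R was at 3.86 and 3.98 on the control arrays (reagent alone, then (uuaccc)4) and at 2.98 and 3.27 on the G4 arrays ((uuaggg)4, then AS1411). The T cell markers CD3D and CD3E differed by 0.05 and 0.02 and did not pass. Centring leaves no summed level to give for a marker list, and the markers' part in the results was not tested.

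Both G4 arrays lay below both control arrays for 4755 genes, 24% of those tested, and above them for 5046, 25.5%. A moderated test (limma, adjusted p under 0.05 over 19775 genes) called 256 genes lower, 1.29% of those tested, and 126 higher, 0.637%, and all 382 were among the separated genes. At 2-fold or more the split was steeper, with 119 genes lower and 18 higher, and 39 genes were lower by 4-fold or more. In these bulk cultures fewer cells with a transcript and less transcript per cell cannot be told apart. At the threshold, VPS26B, a subunit of the retromer sorting complex, lay just inside (adjusted p = 0.0496 in limma) and ATG14, which initiates autophagy, just outside (0.0505). The counts fell without any 1 of the 4 PC-3 arrays. Each such fit leaves 1 array in a class, which lowers the precision whichever array goes. These falls therefore cannot tell a particular array's part from lost precision, and the same holds where a call below is lost without an array. Without the reagent-alone array the test called 128 genes lower and 25 higher, without (uuaccc)4 152 and 48, without (uuaggg)4 169 and 69, and without AS1411 151 and 32. Fitted on the 4 PC-3 arrays alone, it also called 128 lower and 25 higher.

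The 15 largest fallers are all genes known to be induced by interferon. They were taken from called genes with both G4 arrays below both control arrays, so that separation was set by the choice. For IFI27, a mitochondrial and nuclear membrane protein used as a marker of interferon exposure, the values were -0.32 with the reagent alone, -0.56 with (uuaccc)4, -4.61 with (uuaggg)4 and -4.69 with AS1411. Its control arrays differed by 0.25 and its G4 arrays by 0.08. The difference between classes was -4.21 ± 0.15 (limma, adjusted p = 6.57e-07). The error is the SE for 2 PC-3 arrays against 2, with the spread taken from the fit to all 12 arrays. BST2, or tetherin, which holds budding viruses at the cell surface, was at 0.67 and 0.35 on the control arrays and at -3.12 and -3.75 on the G4 arrays. Its difference of -3.95 ± 0.18 was 15.4-fold (limma, adjusted p = 2.89e-06). TRIM22, an antiviral ubiquitin ligase, was at 2.14 and 1.60 on the control arrays and at -1.60 and -2.54 on the G4 arrays. The spread within its classes was wider, and the gap between the nearest arrays of the classes was still 3.21.

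RSAD2 (viperin), which makes a chain-terminating nucleotide, fell by 3.70 on the log2 scale, and its divergent neighbour CMPK2, a mitochondrial nucleotide kinase, fell by 3.32. IFI6, a small membrane protein of the IFI27 family, fell by 3.49, and XAF1, an antagonist of the inhibitor of apoptosis XIAP, fell by 3.37. The other large fallers were HERC6 (-3.37), a ubiquitin ligase of the ISG15 ligase family, IFI44 (-3.22), SAMD9L (-3.00) and SAMD9 (-2.85), restriction factors against poxviruses, and the RNA helicases IFIH1 (-2.89) and DDX60 (-2.86). IFITM1, which blocks virus entry at membranes, fell by 2.87, and IFIT1, which binds foreign RNA caps, by 2.85. HERC6 has a second probe set that showed a difference of -0.01, so its fall rests on 1 of 2 probe sets. IFIH1 was no longer called when its probe set was chosen on the control arrays alone.

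**Figure D1:**
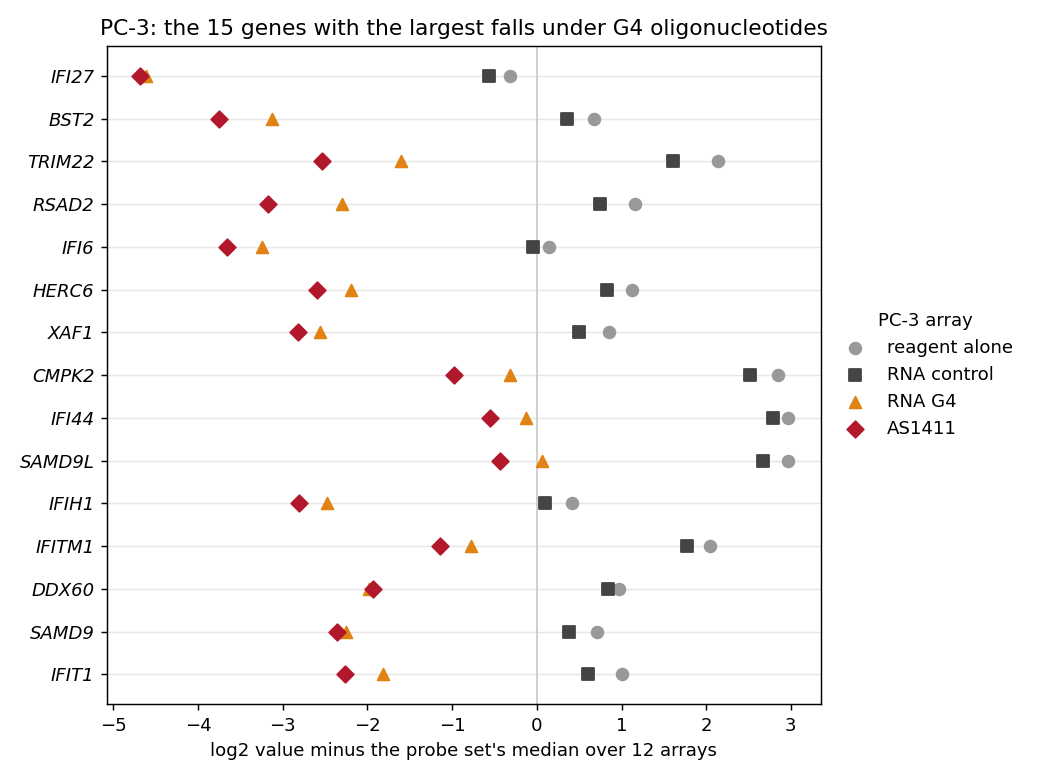
Centred log2 values of the 15 genes with the largest falls on the 4 PC-3 arrays, 1 point per array; there is no error bar because each treatment has 1 array. By the choice of genes, both G4 arrays (orange triangle, red diamond) lie left of both control arrays (grey circle, dark square), by 4.05 for IFI27.

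By role, none of 10 measured interferons and receptors passed the test, with a median difference of -0.19 beside 0.01 over all genes tested. IFNB1, encoding interferon beta, was at 0.01 and 0.15 on the control arrays and -0.22 and -0.63 on the G4 arrays, a difference of -0.50 ± 0.19 that did not pass (limma, adjusted p = 0.238). IFNL1, encoding interferon lambda, differed by -0.46 ± 0.19 (limma, adjusted p = 0.29), and its classes overlapped. Without the (uuaggg)4 array IFNL1 passed the test.

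Of 12 measured genes of interferon signalling and feedback, 4 fell and 0 rose, beside 1.29% and 0.637% of all genes. IRF9, the DNA-binding subunit of the factor that acts on ISREs, was at 0.30 and 0.20 on the control arrays and at -0.89 and -0.99 on the G4 arrays (-1.19 ± 0.16; limma, adjusted p = 0.00232). IRF7, which drives the interferon genes, fell by 1.25 and IRF1 by 0.85. USP18, which removes ISG15 from proteins and damps receptor signalling, fell most, by 2.70. The list's median was -0.20, since the other 8 members did not pass.

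Sensors of nucleic acid fell in 10 of 17 cases, beside 1.29% of all genes, with a median of -1.27. Besides IFIH1, the cytosolic sensor of long double-stranded RNA, they included OAS3 (-2.58) and OAS1 (-2.20), oligoadenylate synthetases, whose product activates RNase L, and their catalytically inactive relative OASL (-2.70). OASL was at 3.10 and 3.03 on the control arrays and at 0.47 and 0.25 on the G4 arrays. Of 27 antiviral effectors, 23 fell (median -1.89). All 4 measured genes of ISG15 conjugation, the attachment of the ubiquitin-like ISG15 to proteins, fell: HERC6, the ligase HERC5 (-2.41), ISG15 itself (-1.99) and the conjugating enzyme UBE2L6 (-1.61). Of 33 other interferon-stimulated genes 30 fell (median -1.61), IFI35 by 2.01. Among them PLSCR1, a scramblase that also limits virus entry, fell by 2.57 on its chosen probe set. Its other probe sets gave -2.35 and 0.17.

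Joined, these last 3 lists hold 64 measured genes, of which 57 were lower past the threshold and 53 of them by 2-fold or more, beside the 1.29% of all genes called lower. Their median difference was -1.81, and 62 of the 64 were separated downwards, beside 24% of all genes. The median was -1.56 for (uuaggg)4 against (uuaccc)4 and -2.02 for AS1411 against the reagent alone. Leaving out any of the 4 PC-3 arrays left 54 to 56 of them called lower.

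Genes of MHC class I presentation, which show peptides to T cells, fell in 10 of 18 cases, beside 1.29% of all genes. Their median was -0.63. TAP1, the peptide transporter, was at 0.83 and 0.65 on the control arrays and at -1.08 and -1.14 on the G4 arrays, a difference of -1.86 ± 0.10 (limma, adjusted p = 3.39e-06). The immunoproteasome subunits PSMB9 and PSMB8 fell by 2.36 and 1.27, and NLRC5, which activates the class I genes, by 1.94. The other 6 fell by 0.44 to 0.78. Of 32 NF-kB targets and cytokines, 5 fell and 0 rose, beside 1.29% and 0.637% of all genes. Those that fell were CXCL11 (-2.02), CCL5 (-1.70), CCL20 (-1.47), CXCL10 (-1.28) and IL6 (-1.27). CXCL11, CXCL10 and CCL5 are chemokines that interferon also induces. Their list had a median of -0.16, with 16 members separated downwards and 6 upwards, beside 24% and 25.5% of all genes. CXCL10 no longer passed without the reagent-alone or the (uuaggg)4 array.

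**Figure D2:**
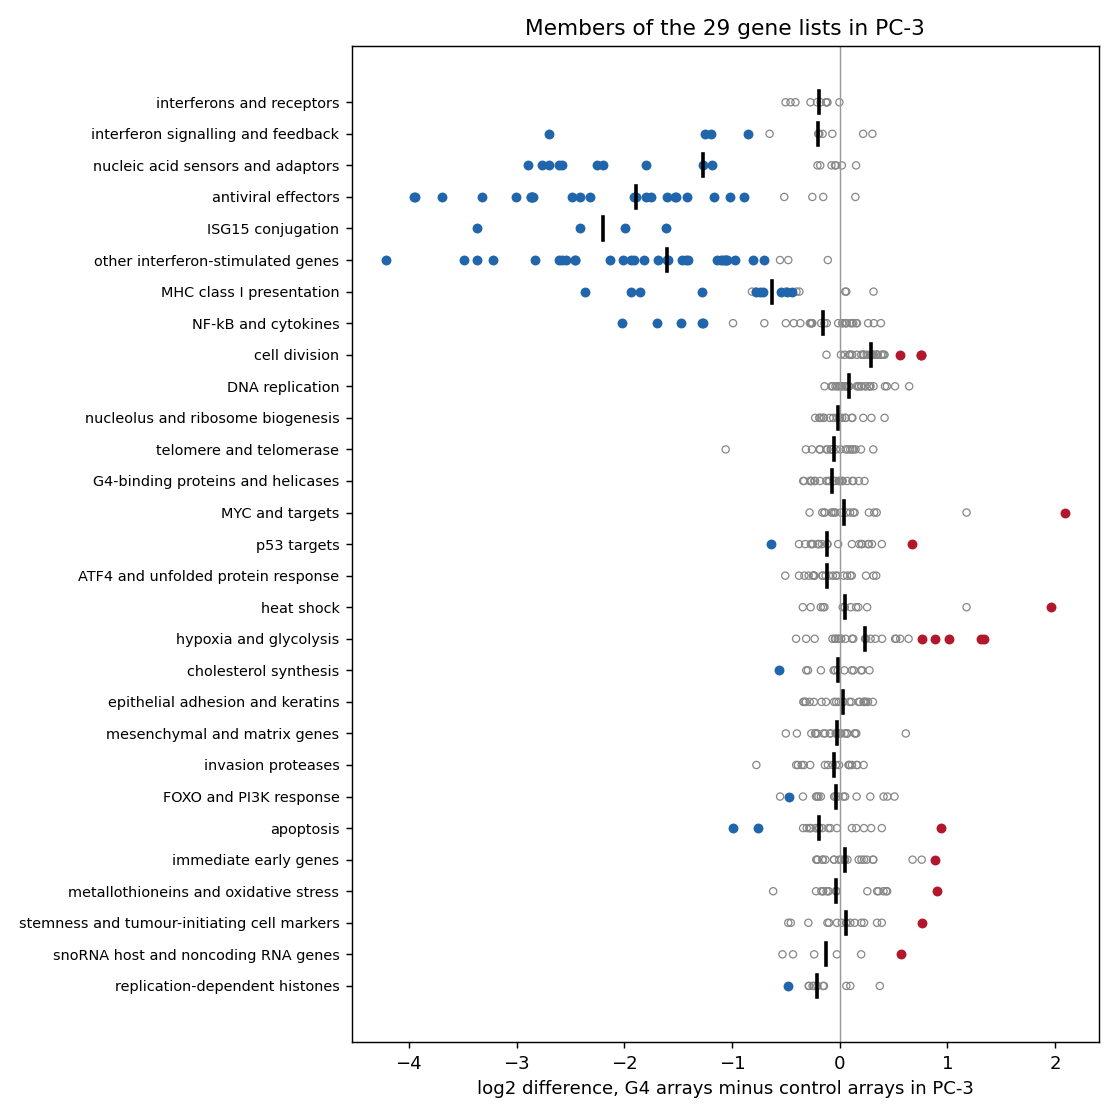
Log2 difference (G4 arrays minus control arrays in PC-3) of each measured member of the 29 gene lists; filled blue and red points passed the test lower and higher (limma, adjusted p under 0.05), open points did not, and the black bar is the list's median. The lists of antiviral effectors, ISG15 conjugation and other interferon-stimulated genes have medians of -1.89, -2.20 and -1.61, and most other lists lie near 0.

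The pattern letters in the promoters were counted for the genes that have a promoter in the table. The ISRE core was in 381 of 15384 tested genes (2.48%), in 44 of 198 genes that fell (22.2%) and in 2 of 105 that rose (1.90%). Among fallers of the 3 interferon-stimulated lists it was in 26 of 46 (56.5%), and among the other fallers in 18 of 152 (11.8%). GAS was in 6.03% of tested genes, 14.6% of fallers and 2.86% of risers. Of the 15 largest fallers 14 had a promoter; 9 of these held the ISRE core, 4 held GAS, and 5 (RSAD2, HERC6, XAF1, CMPK2 and SAMD9L) held neither in the 250 bases. These counts describe letters in the first listed start of each gene.

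Some fallers also lay beside each other on the chromosome. In the order of the genes tested, 46 of 256 fallers had another faller as their direct neighbour, in 18 runs. Of 126 risers, 4 had another riser as their neighbour, in 2 runs. Among all genes, 1.29% were called lower and 0.637% higher. The share of genes with a called neighbour in a random order was not computed, so these counts are descriptions and were not tested. The runs of fallers included GBP3, GBP1, GBP2, GBP4 and GBP5, the guanylate-binding proteins, IFIT2, IFIT3, IFIT1 and IFIT5, IFITM2, IFITM1 and IFITM3, OAS1, OAS3 and OAS2, and PSMB8, PSMB8-AS1, TAP1 and PSMB9. Members of a run are related genes in most cases and can share probe sequence, so they are not independent.

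The rises were smaller and of other kinds. HSPA6 was at -1.56 and -1.44 on the control arrays and at 0.65 and 0.87 on the G4 arrays, a difference of 2.26 ± 0.15 (limma, adjusted p = 2.28e-05), and its second probe set gave 2.47. DNAJB1, the Hsp40 partner of Hsp70, was at -1.40 and -1.14 on the control arrays and at 0.63 and 0.76 on the G4 arrays (1.96 ± 0.15), while its second probe set gave 0.33. The classes of both genes were far apart on the chosen probe sets. On the chosen probe sets only DNAJB1 of 13 measured members of the heat shock list passed, beside 0.637% of all genes called higher. HSPA6 was no member of that list. HSPD1, the mitochondrial chaperonin, differed by 1.18 ± 0.27 on its chosen probe set (limma, adjusted p = 0.0589), while its other probe sets gave -0.01 to 0.45. DNAJA1 differed by -0.34 on its chosen probe set (limma, adjusted p = 0.0974). Its other probe set gave -0.51, a fall past the threshold when every probe set was tested (limma, adjusted p = 0.0262).

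CXCR4, the receptor of the chemokine CXCL12, was at 5.46 and 5.74 on the control arrays and at 7.04 and 7.45 on the G4 arrays, 3.13-fold higher (1.65 ± 0.19; limma, adjusted p = 0.000924). Its 3 probe sets rose by 1.44 to 1.65. ENO1, the glycolytic enzyme enolase, rose by 2.09 on 1 probe set, while the other 3 of its 4 probe sets differed by 0.01 to 0.11, so its rise is that of 1 probe set and not of all its transcripts. In CDCP1, a transmembrane substrate of Src kinases, 1 of 3 probe sets carried the rise of 1.77, with the others down to -0.13. PHLDB2, which anchors microtubules at the cell cortex, rose by 1.70 on 1 of 5 probe sets, with others down to -0.43, and NCOA6, a nuclear receptor coactivator, by 1.13 on 1 of 2. CDCP1, PHLDB2 and NCOA6, and CCSAP (1.14) and GPRC5A (1.08), were no longer called when probe sets of a gene were averaged. Of the fallers, 205 of 256 had all their probe sets of 1 sign, and of the risers 86 of 126. The remaining large rises were those of LOC100630923 (1.37), LONRF2 (1.37, on 1 of 2 probe sets, the other giving 0.05) and DEPP1 (1.19).

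**Figure D3:**
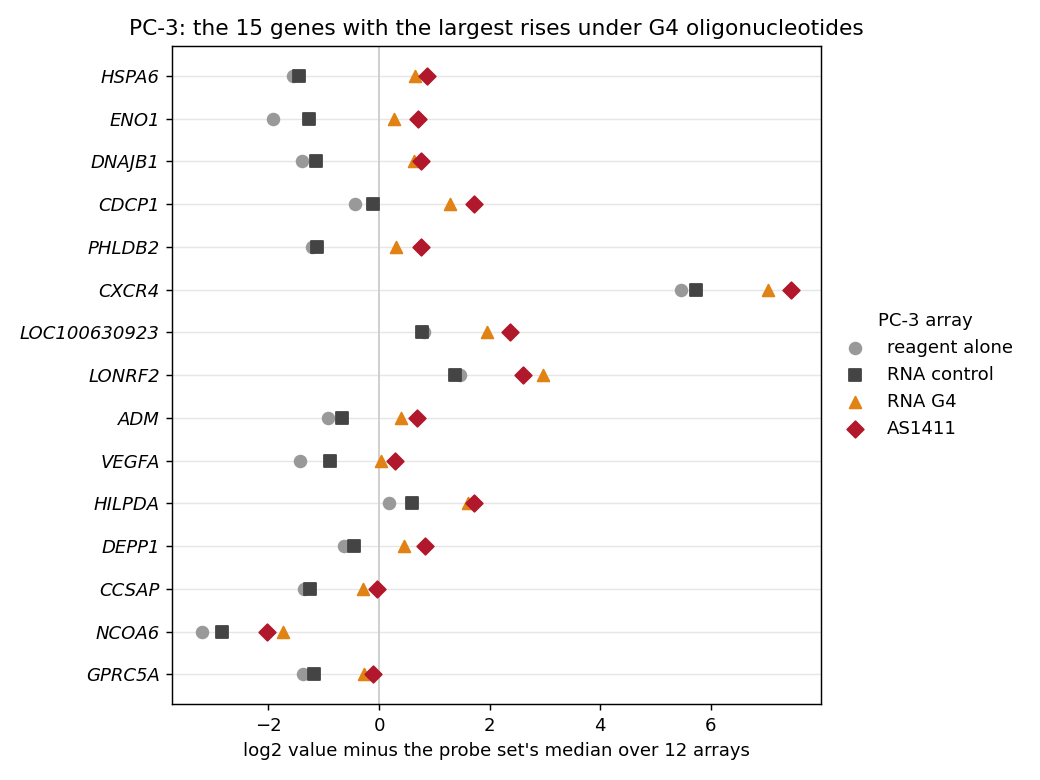
Centred log2 values of the 15 genes with the largest rises on the 4 PC-3 arrays, 1 point per array and no error bar. By the choice of genes, both G4 arrays lie right of both control arrays. CXCR4 goes from 5.46 and 5.74 to 7.04 and 7.45, and the values are those of 1 chosen probe set per gene.

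Of 27 measured genes of hypoxia and glycolysis, 5 rose and 0 fell, beside 0.637% of all genes called higher. Of the 27, 14 were separated upwards, beside 25.5% of all genes, and the median was 0.24. ADM, the vasodilator peptide adrenomedullin, was at -0.92 and -0.68 on the control arrays and at 0.39 and 0.69 on the G4 arrays (1.34 ± 0.18; limma, adjusted p = 0.00287). VEGFA, the angiogenic growth factor, rose by 1.32 on its chosen probe set, and its 4 probe sets ranged from 0.06 to 1.32. ANKRD37 (1.01), ANGPTL4 (0.88), a lipase inhibitor, and PFKFB3 (0.76), an activator of glycolysis, were the others. HILPDA, a lipid droplet protein induced by hypoxia but outside the list, rose by 1.28. The list medians in HBC4 and MKN74 were 0.02 and -0.07. VEGFA lost its call with averaged probe sets, on the 4 PC-3 arrays alone and without the reagent-alone, (uuaggg)4 or AS1411 array, and ANKRD37 and PFKFB3 lost theirs without any of the 4 PC-3 arrays. ANGPTL4 lost its call without the reagent-alone, (uuaccc)4 or AS1411 array.

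Of 32 measured cell division genes 3 rose and 0 fell, beside 0.637% of all genes called higher and 1.29% called lower. Both G4 arrays lay above both control arrays for 26 of the 32, beside 25.5% of all genes, and the median was 0.29. Those that passed were PRR11 (0.76), NEK2 (0.75) and UBE2C (0.56). The other probe sets of PRR11 gave 0.03 and -0.13. NEK2, a centrosomal kinase, was at -3.06 and -3.16 on the control arrays and at -2.27 and -2.44 on the G4 arrays. AURKB, the kinase of the chromosomal passenger complex, differed by 0.41 ± 0.10 and did not pass (limma, adjusted p = 0.0664). All 3 calls were lost on leaving out the reagent-alone, (uuaccc)4 or (uuaggg)4 array. The list medians were 0.49 in HBC4 and 0.47 in MKN74. Of 31 DNA replication genes none passed, with HELLS at 0.65 (limma, adjusted p = 0.0517) and PRIM1 at 0.51 (0.0692).

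The proteins that G4 structures or AS1411 are known to meet showed no call. NCL, encoding nucleolin, was at -0.06 and -0.18 on the control arrays and at -0.12 and -0.12 on the G4 arrays, a difference of 0.00 ± 0.09 (limma, adjusted p = 0.992; 95% interval -0.20 to 0.21). The telomere-binding genes TERF1 and TERF2 differed by -0.26 (limma, adjusted p = 0.263) and 0.31 (0.24). The G4 helicase DHX36 differed by -0.33 (limma, adjusted p = 0.282) and the telomerase subunit TERT by -0.08 (0.82). Some other probe sets of these genes had the opposite sign. Those of TERF2 ranged from -0.07 to 0.18, that of NCL gave -0.24 and that of TERT 0.01. ATRX, a chromatin remodeller at telomeres, differed by -1.06 ± 0.36 (limma, adjusted p = 0.191), with 1.83 under (uuaggg)4 and 0.95 under AS1411 against 2.50 and 2.40 on the control arrays, and its other 3 probe sets gave -0.91, 0.05 and 0.14. None of 24 G4-binding proteins and helicases, 20 telomere genes and 20 nucleolar genes passed, and the medians were -0.07, -0.05 and -0.02. FBL, the nucleolar fibrillarin, differed by 0.42 (limma, adjusted p = 0.086).

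Elsewhere single members moved, beside 1.29% of all genes called lower and 0.637% called higher. In the apoptosis list (21 measured) CASP1, the inflammatory caspase, fell by 0.99 and CASP8, the initiator of the death receptor pathway, by 0.75, and XIAP rose by 0.94 on 1 of 7 probe sets, the others reaching down to -0.30. Among 22 p53 targets PMAIP1, a BH3-only protein, fell by 0.64 and ZMAT3 rose by 0.68. DUSP1, a MAP kinase phosphatase, rose by 0.88 (1 of 22 immediate early genes). The zinc exporter SLC30A1 rose by 0.90 on 1 of 3 probe sets (1 of 17 metallothionein and oxidative stress genes). The Notch target HES1 rose by 0.76 (1 of 16 stemness markers), while its other probe sets gave 0.36 and -0.07. DANCR, a noncoding snoRNA host gene, was at 0.60 and 0.56 on the control arrays and at 1.14 and 1.15 on the G4 arrays (0.57 ± 0.11; limma, adjusted p = 0.0274). STARD4, a cholesterol carrier, fell by 0.56, the receptor ERBB3 by 0.47 and the histone gene H2BC4 by 0.48. The other probe sets of ERBB3 gave only -0.17 to -0.07. DANCR, PMAIP1, HES1, CASP8, STARD4, ERBB3 and H2BC4 each lost the call without any 1 of the 4 PC-3 arrays, and CASP1, ZMAT3, XIAP, DUSP1 and SLC30A1 without some of them. Of 22 ATF4 and unfolded protein response, 23 epithelial, 26 mesenchymal and 18 protease genes none passed, with medians of -0.11, 0.03, -0.03 and -0.05. Outside all 29 lists, 162 genes fell and 110 rose.

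The classes can be taken apart into pairs of single arrays, which have no replicate and no test. Against (uuaccc)4, (uuaggg)4 was lower by 2-fold or more for 125 genes, 0.632% of those tested, and higher for 25, 0.126%. Against the reagent alone, AS1411 was lower for 165, 0.834%, and higher for 55, 0.278%. These pairs share no array, but their mean is the class difference, so called genes were chosen on these same values. Between the arrays of 1 class the counts were smaller: AS1411 against (uuaggg)4 had 16 lower, 0.0809%, and 12 higher, 0.0607%, and (uuaccc)4 against the reagent alone had 4 lower, 0.0202%, and 3 higher, 0.0152%. IFI27 gave -4.05 in the RNA pair and -4.37 in the AS1411 pair, TRIM22 gave -3.21 and -4.68, and HSPA6 gave 2.09 and 2.43.

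Of 256 fallers, 116 (45.3%) were highest with the reagent alone, then lower with (uuaccc)4, (uuaggg)4 and AS1411, beside 1477 of the 4755 genes separated downwards (31.1%). Of 126 risers, 62 (49.2%) stood in the reverse order, beside 1393 of the 5046 separated upwards (27.6%). The call itself places the control arrays on 1 side, so these shares describe the order within the classes and were not tested. Among the 15 largest fallers DDX60 stood otherwise, at -1.99 with (uuaggg)4 and -1.93 with AS1411. Over the fallers the median of (uuaccc)4 minus the reagent alone was -0.10 and that of AS1411 minus (uuaggg)4 was -0.04.

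**Figure D4:**
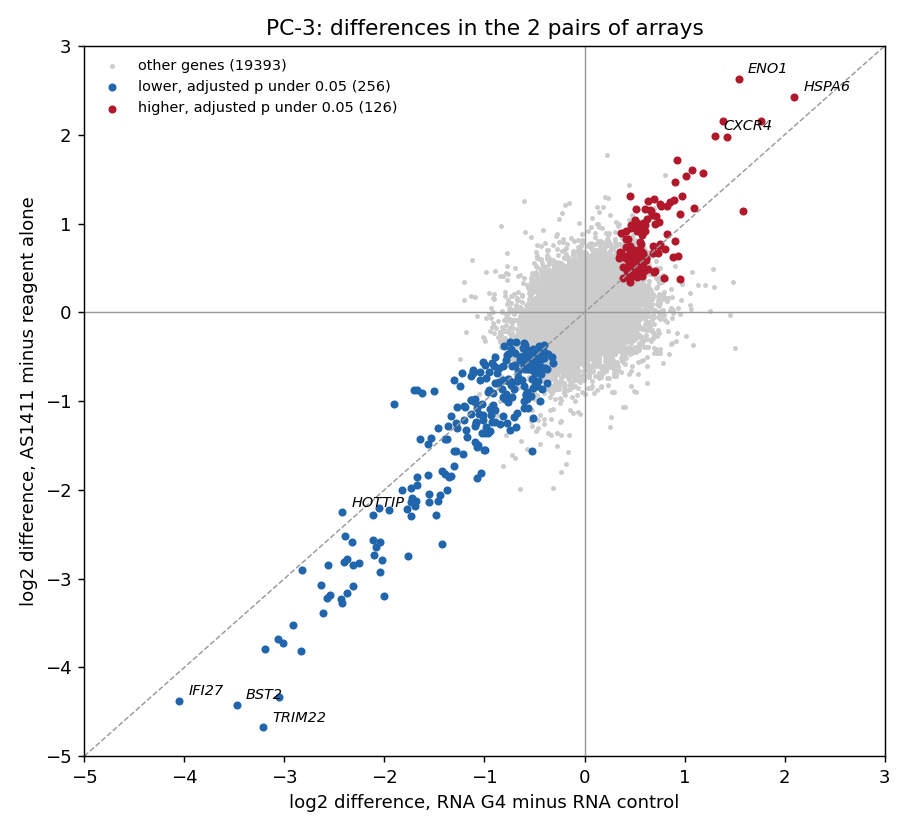
Log2 difference of (uuaggg)4 minus (uuaccc)4 (horizontal) and of AS1411 minus the reagent alone (vertical) for all 19775 genes in PC-3; blue and red points passed the test lower (256) and higher (126), and the dashed line marks equal differences. The pairs share no array, but their mean is the class difference by which points were called. TRIM22 lies at -3.21 and -4.68 and IFI27 at -4.05 and -4.37.

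The same contrast was compared with the other lines, which have 4 arrays each. The difference in PC-3 was lower than the mean of the differences in HBC4 and MKN74 for 53 genes, 0.268% of those tested, and higher for 46, 0.233% (limma, adjusted p under 0.05 for the interaction). TRIM22 fell by 3.94 in PC-3, and its differences were -1.17 in HBC4 and -0.44 in MKN74 (interaction -3.14 ± 0.33; limma, adjusted p = 0.0032). BST2 differed by -3.95, -1.22 and -1.79 in the same order (interaction -2.45 ± 0.22) and HERC6 by -3.37, -1.93 and -0.91. RTP4, a receptor transporter induced by interferon, differed by -2.83, -1.79 and 0.68. TRIM22, BST2, HERC6 and RTP4 were all also called lower in HBC4 (limma, adjusted p under 0.05), and BST2 and HERC6 also in MKN74. IFI27 did not pass the interaction test. Its difference was -5.85 in HBC4 and -1.40 in MKN74, and the interaction was -0.59 ± 0.19 (limma, adjusted p = 0.237). Of the 64 interferon-stimulated genes 11 passed as lower in PC-3 and 1 as higher, and the medians of the 64 were -1.81 for PC-3, -1.24 for HBC4 and -0.88 for MKN74.

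Other genes that differed between the lines lay outside the interferon lists. HOTTIP, a noncoding RNA at the end of the HOXA cluster, was at 2.63 and 2.88 on the PC-3 control arrays and at 0.46 and 0.38 on the G4 arrays, a difference of -2.34 ± 0.11 beside -0.27 in HBC4 and -0.25 in MKN74 (interaction -2.08 ± 0.14; limma, adjusted p = 0.000311). It rests on 1 of 3 probe sets, the others giving -0.08 and 0.13. THEMIS2, a signalling scaffold of immune cells, differed by -1.40 beside 0.63 and 0.07, HAPLN1, a link protein of the matrix, by -1.13 beside 0.07 and 0.11, and DNAH7, a dynein heavy chain, by -1.04 beside 0.12 and 0.34. The fall of DNAH7 rests on 1 of 3 probe sets, the others giving -0.11 and -0.01. HOTTIP, HAPLN1 and DNAH7 lost the interaction call with averaged probe sets.

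Of the 8 genes named for a higher difference in PC-3, 6 were risers there. HSPA6 differed by 2.26 here, by 0.52 in HBC4 and by -0.18 in MKN74 (interaction 2.09 ± 0.19; limma, adjusted p = 0.00186), and DNAJB1 by 1.96, 0.16 and 0.10. CCSAP, ENO1, CDCP1 and GPRC5A had interactions of 1.19, 1.91, 1.86 and 1.21, and all 4 lost that call with averaged probe sets. The other genes named were SCNN1G, an epithelial sodium channel subunit, and CARD16, a caspase-1 inhibitor. SCNN1G differed by 0.33 in PC-3 and did not pass there (limma, adjusted p = 0.321), with -0.02 in HBC4 and -2.36 in MKN74, and CARD16 by -0.09 in PC-3 with -2.07 in HBC4 and -0.14 in MKN74. Their interaction came from 1 other line each. That of SCNN1G was lost against HBC4 alone, and that of CARD16 against MKN74 alone and with averaged probe sets. Of the 16 genes named for the interaction, 2 lost it against HBC4 alone and 1 against MKN74 alone. CXCR4, with 1.65 in PC-3 beside 0.02 and -0.05, also passed (interaction 1.66 ± 0.23; limma, adjusted p = 0.0177). The counts for the interaction were the least stable: without the AS1411 array of PC-3 they were 15 lower and 6 higher, without its reagent-alone array 17 and 7, without its (uuaccc)4 array 30 and 19, and without its (uuaggg)4 array 32 and 35. They were 23 and 18 without the reagent-alone array of HBC4, 17 and 10 without that of MKN74, and 26 and 18 without the (uuaccc)4 array of MKN74.

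The calls in the other lines rest on other arrays. Of the 256 genes that fell in PC-3, 122 (47.7%) were also called lower in HBC4, 30.7% of its 397, and 69 (27.0%) in MKN74, 25.4% of its 272, and 59 were called lower in all 3 lines. Of the 126 that rose, 8 (6.35%) were called higher in HBC4, 2.87% of its 279, and 7 (5.56%) in MKN74, 7.78% of its 90. A gene missing from another line's calls is not shown to differ there.

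**Figure D5:**
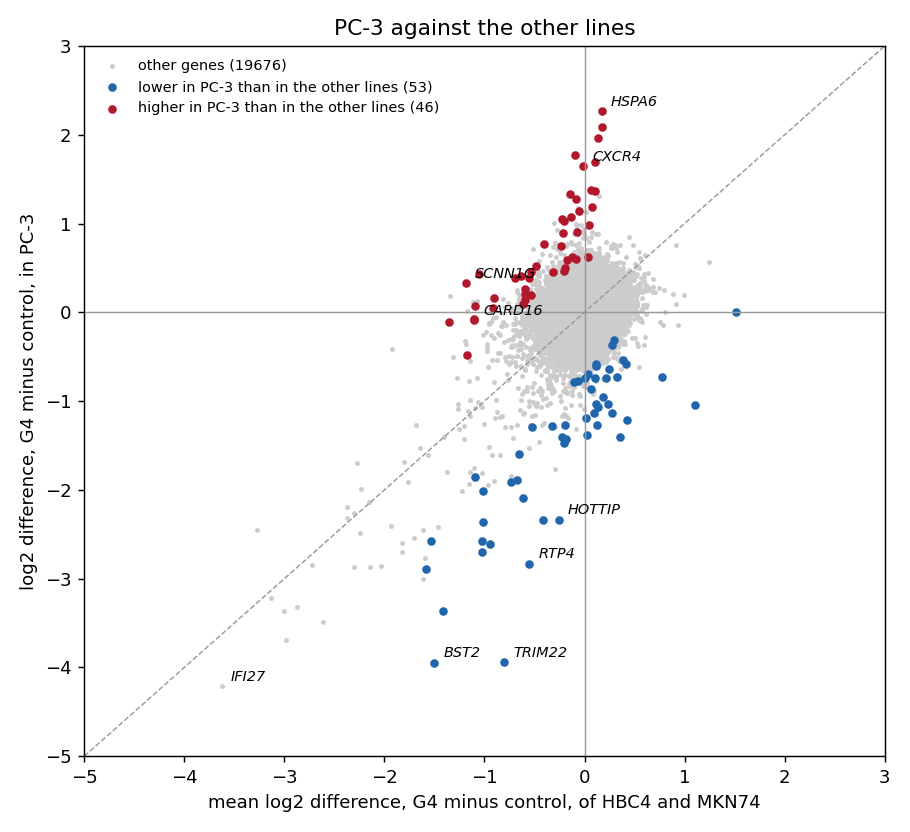
Log2 difference of G4 minus control arrays in PC-3 (vertical) against the mean of that difference in HBC4 and MKN74 (horizontal) for 19775 genes; blue and red points passed the interaction test (limma, adjusted p under 0.05; 53 lower, 46 higher), and the dashed line marks equal differences. TRIM22 lies at -3.94 in PC-3, and HSPA6 and CXCR4 rose in PC-3 with means near 0 in the other lines.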

How the data were processed

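Total RNA of 12 cultures was measured on Affymetrix human genome arrays, per the labels' protocols from 100 ng RNA, and normalized by RMA per the submitters' processing notes (version not given in the sources used here). What the authors deposited are log2 expression values with a median of 0 for each probe set, to within 5e-07; the step that centred them is unknown and removes levels and detection. Of 54675 probe sets, 62 were array controls, 41091 named 1 gene (41037 matched RefSeq by gene ID), 1801 named several and 11721 are unnamed here. Each gene was represented by the probe set whose means in the 3 lines, over all their arrays, varied most; this can favour probe sets that respond differently between lines.

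limma 3.58.1 in R 4.3.3 fitted 6 group means (line and class) to 12 arrays, leaving 6 residual degrees of freedom, with Benjamini-Hochberg adjustment over 19775 genes at 0.05. The interaction is the PC-3 difference minus the mean of those in HBC4 and MKN74. Other normalizations, probe set choices, fits and left-out arrays were tried as alternatives. The script was tested on simulated data. The number of arrays limits the precision. Members and lists were chosen with earlier results of these data known. Named genes are, in each direction, the 15 largest differences past the threshold among separated genes and up to 8 genes by the interaction. Added to them were the 4 genes of smallest p in each list, and NCL, TERF1, TERF2, DHX36, ATRX, DANCR, TERT, IRF9 and IRF7. IL6, PFKFB3, VPS26B, ATG14, the marker genes and the members of chromosomal runs fall outside this rule and were named after their values were seen. Promoters are from the first start RefSeq lists (GRCh38.p14). The sequences of the oligonucleotides are not reported here.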

Additional observations from a re-analysis of the deposited data

Results flagged for a closer look

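The G4 difference of 34 named genes in PC-3 differed from the mean difference of HBC4 and MKN74 by the interaction test (limma, adjusted p under 0.05). For 17 of them PC-3 was lower, with interactions on the log2 scale of TRIM22 (-3.14), BST2 (-2.45), RTP4 (-2.28), HOTTIP (-2.08), HERC6 (-1.95), THEMIS2 (-1.75), OASL (-1.67), PLSCR1 (-1.55), PSMB9 (-1.34), IFIH1 (-1.31), CCL20 (-1.27), DNAH7 (-1.27), HAPLN1 (-1.22), PSMB8 (-1.08), OAS3 (-1.04), IFI35 (-0.99), TAP1 (-0.76). For 17 it was higher, with interactions of H2BC4 (0.69), SLC30A1 (0.97), CARD16 (1.02), DEPP1 (1.11), CCSAP (1.19), GPRC5A (1.21), LONRF2 (1.26), LOC100630923 (1.31), HILPDA (1.36), ADM (1.48), SCNN1G (1.52), PHLDB2 (1.59), CXCR4 (1.66), DNAJB1 (1.83), CDCP1 (1.86), ENO1 (1.91), HSPA6 (2.09). A higher interaction is not always a rise in PC-3. H2BC4 fell there, with -0.48 beside -1.11 in HBC4 and -1.24 in MKN74, and SCNN1G and CARD16 were not called there. Of all 46 genes with a higher interaction, 26 were called higher in PC-3 and 19 were not called. ENO1, CDCP1, PHLDB2, HOTTIP, SLC30A1, LONRF2, DNAH7, HERC6, PLSCR1, CCSAP and GPRC5A each passed on the chosen probe set. Each had at least 1 other probe set near 0 or of the opposite sign.

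Probe sets outside the gene table also passed the test between the classes in PC-3. Of 11721 unnamed probe sets, 43 were lower and 30 higher, and of 1801 that name several genes, 17 were lower and 12 higher (limma, adjusted p under 0.05). They were not used above.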

How the results depend on the processing

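In PC-3 the test called 256 genes lower and 126 higher. It called 168 and 61 after quantile normalization, 417 and 217 over every probe set, 128 and 25 on the 4 PC-3 arrays alone, and 119 and 18 with 2-fold required. With treatment within class added the higher count was 63. Leaving out 1 array gave 128 to 257 lower and 25 to 117 higher. The interaction counts of 53 and 46 became 33 and 24 after quantile normalization and 30 and 18 with treatment within class, 30 lower against HBC4 alone, 88 and 93 against MKN74 alone, 70 higher without the genes of flattest line means, and 15 to 48 lower and 6 to 61 higher without 1 array. Separated genes numbered 9556 and 10259 over every probe set and 2517 and 2395 with a gap of at least 0.1, and lower outnumbered higher, 5180 to 4611, with arrays centred on their median. The interferon-stimulated count stayed at 52 to 57 and its median at -1.93 to -1.53 under the alternatives run for it. Those were quantile normalization, median-centred arrays, averaged probe sets, the 4 PC-3 arrays alone and leaving out 1 PC-3 array. Other settings, among them probe sets chosen on control arrays and treatment within class, were not run for it. Of 73 named genes past the threshold none reversed, while 20 calls ended on the 4 PC-3 arrays alone, 14 with averaged probe sets, 11 with treatment within class, 10 after quantile normalization and 3 with probe sets chosen on control arrays, and 0 to 22 without 1 array. The PC-3 difference of NCL turned sign after quantile normalization (-0.013), on median-centred arrays (-0.010), with averaged probe sets (-0.12) and without 1 array (-0.057 to 0.064), that of TERT with the probe set chosen on control arrays (0.014), and that of CARD16 without 1 array (-0.18 to 0.0096), none past the threshold. The cause was not tested. Quantile normalization of the array pairs, added after seeing the data, kept all 8 counts within 1.5 times.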
